A study of Mus musculus with 18 samples.

Results

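Mouse trophoblast stem cells (TSCs) kept for 2 days in hypoxia were compared with TSCs kept in normoxia. The comparison rests on 4 of the 18 bulk RNA-seq libraries of the study, 2 biological replicates of each condition, and on every gene whose TPM (transcripts per 1000000, the deposited unit) was above 0.4 in at least 2 of the 6 TSC libraries. This filter kept 12481 of 13518 genes. Normoxia was 20% oxygen and hypoxia was 2% oxygen. Cells of both conditions grew on feeder cells in a serum-rich medium with FGF4 and heparin, and no transgene or drug is given for either. The labels call them extraembryonic stem cells and name no cell line, so the replicates may come from a single line. A further pair of TSC libraries from day 7 of hypoxia entered the fit and is shown beside the day 2 values. This pair contributed only to the estimate of the spread, on which the number of genes that passed the test depended. ESCs and XEN cells, models of the epiblast and of the primitive endoderm, are used only for side-by-side values.

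TSCs derive from the trophectoderm, the outer layer of the blastocyst that later gives rise to the placenta, and depend on FGF signalling to keep dividing. In normal oxygen, prolyl hydroxylases mark the alpha subunits of the transcription factor HIF for destruction. In low oxygen these enzymes slow down, HIF accumulates and binds short motifs near its targets, which include genes of glucose uptake, glycolysis and mitochondrial turnover as well as the hydroxylases that restrain HIF itself. Placental trophoblast develops in low oxygen before maternal blood reaches it, and oxygen is known to influence the balance between its renewal and differentiation.

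The 4 libraries held between 43303183 and 49851162 reads on genes, recovered from the deposited values. Markers of TSCs were expressed in all of them. Cdx2, a trophectoderm regulator, had 140 and 125 TPM in normoxia and 88.0 and 169 on day 2. Eomes, another, had 439 and 364 TPM in normoxia against 271 and 469 on day 2, and the pluripotency gene Nanog lay between 1.22 and 4.67 TPM in the 4 libraries. Replicates were not alike, however. Of the genes tested, 1077 were more than 2-fold apart between the normoxic libraries and 743 between the day 2 libraries, against 290 between the day 7 libraries. A list of 28 fibroblast markers summed to 8130 TPM in the first normoxic replicate and 1220 TPM in the second, and to 1080 TPM in the first day 2 replicate and 3890 TPM in the second. All 28 were higher in the first normoxic replicate than in the second, and all 28 were higher in the second day 2 replicate than in the first, where 33.2% of all genes showed both differences. Col1a1, the main fibrillar collagen chain, had 856 and 103 TPM in normoxia and 81.6 and 503 TPM on day 2. Between 1 and 4 of the 28 markers were below 1 TPM in a library. Of 20 macrophage markers, a list chosen after values were seen, 18 differed in the same way in normoxia and 18 on day 2. From 5 to 15 of the 20 were below 1 TPM in a library. Their summed level was 981 and 637 TPM in normoxia and 803 and 619 TPM on day 2, so on day 2 the sum went the other way. Cd68, a member with high TPM, had 247 and 507 TPM in normoxia and 604 and 249 TPM on day 2. Lyz2, a lysozyme of myeloid cells, had 369 and 6.33 TPM in normoxia and 3.92 and 96.9 TPM on day 2. In bulk RNA, fewer cells of a type and less RNA per cell cannot be told apart. Most of these markers thus differed between replicates of a condition in opposite directions. The number of genes of a list that passed the test is also given below with a covariate wherever it changes. This covariate is the mean level of the fibroblast markers, an alternative added after the data were seen.

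**Figure D1:**
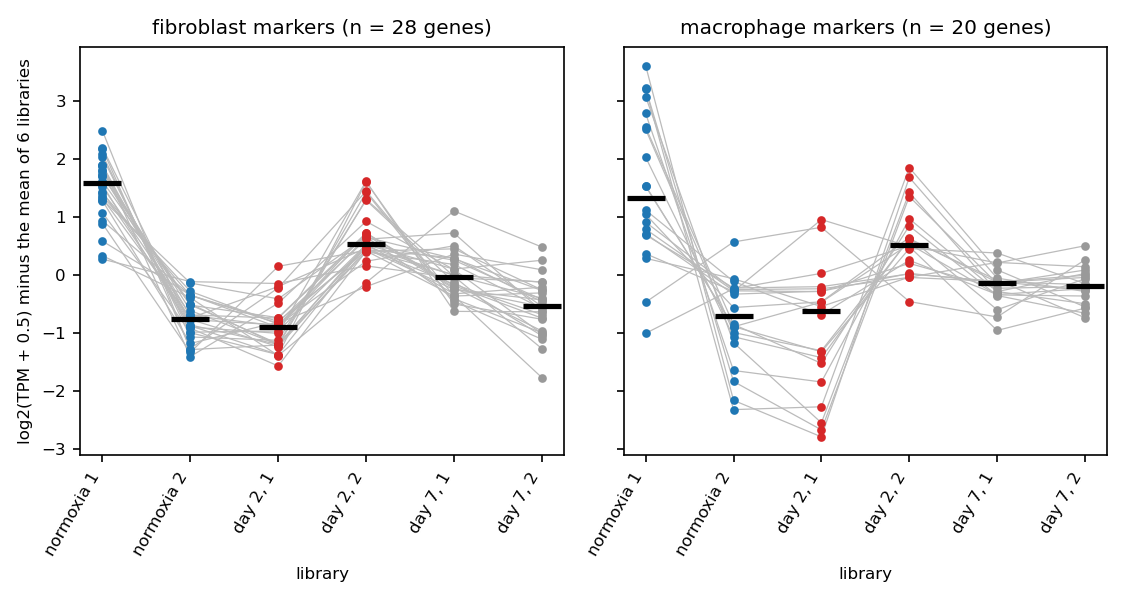
Log2(TPM + 0.5) of each of 28 fibroblast and 20 macrophage markers in the 6 TSC libraries, minus the gene's mean over the libraries. Each line and point is a gene and the black bar is the median of the list. By their medians, both lists stand highest in the first normoxic replicate and next highest in the second day 2 replicate.

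On day 2 of hypoxia, 24 genes rose and 1 fell by the thresholds given below. On log2(TPM + 0.5), the scale of all fold changes given as log2, the highest were the glycolytic enzyme Aldoc, the glucose transporter Slc2a3 and the cytoskeletal gene Smtnl2, with mean TPM 12.2, 11.8 and 13.5 times those of normoxia. The low gene Selenbp1 had the largest ratio of means, 14.3. Differentially expressed (DE) means a fold change over 1.5 and an adjusted p of at most 0.1 from limma. The 25 DE genes are 0.2% of the genes tested. The share was 0.192% for higher and 0.00801% for lower genes. By fold change alone, 12.6% of all genes were past 1.5-fold higher and 6.45% past 1.5-fold lower, and the median log2 fold change of all genes was 0.07. In each of the 19 alternative analyses the 25 genes kept their direction and stayed past 1.5-fold, with log2 fold changes of at least 1.26 in size. Several of these, such as those that add the replicate number as a block or leave out day 7 libraries, cannot change a fold change. As the groups of all 25 genes did not overlap, leaving out 1 library could not reverse a direction either. The number that passed the test was far less stable. It was 0 without the first or without the second day 2 replicate, where 616 and 1898 genes had an unadjusted p under 0.05 from limma. It was 0 as well without either day 7 replicate or without both, a pair with fewer genes over 2-fold apart than the other pairs. It was 18 without the first normoxic replicate and 50 without the second. With the fibroblast markers as a covariate it was 431 (3.45% of genes, 2.76% higher and 0.689% lower), which included all 25. Without overlap between the groups, 30.6% of all genes were higher and 16.9% lower on day 2. List counts below, with or without the covariate, stand against the shares of all genes given here.

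**Figure D2:**
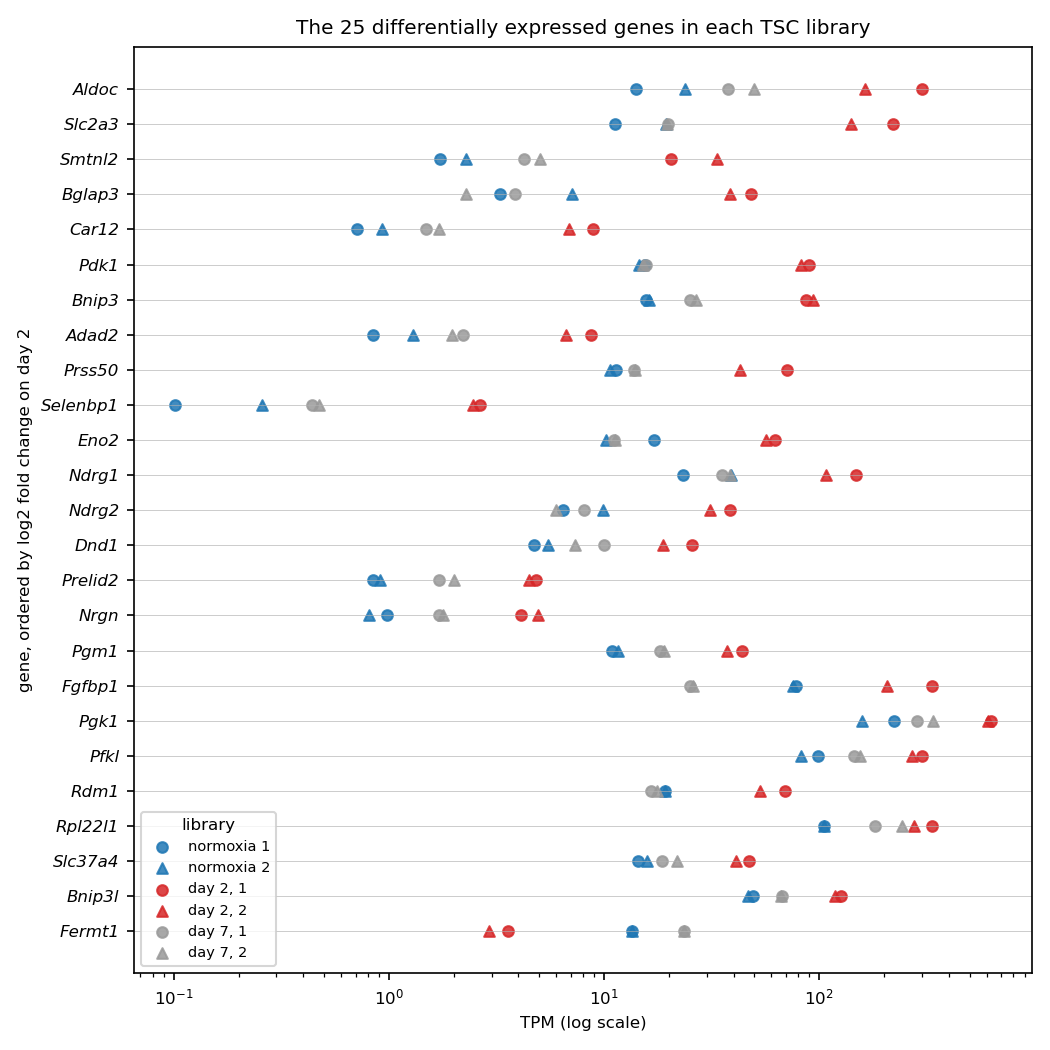
TPM (log scale) of the 25 DE genes in the 6 TSC libraries, ordered by log2 fold change on day 2. Both day 2 libraries (red) lie above both normoxic libraries (blue) for 24 genes and below them for Fermt1, and the day 7 libraries (grey) lie below both day 2 libraries for those 24.

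Glucose uptake and glycolysis formed the list with the highest median. Of 30 tested genes of glucose and lactate transport and glycolysis, 6 were DE and higher and none DE and lower. The median log2 fold change of the 30 was 1.05 against 0.07 for all genes. The list had 21 members past 1.5-fold higher and 0 past 1.5-fold lower. Both day 2 libraries lay above both normoxic libraries for 24 of the 30, as they did for 30.6% of all genes, and below them for 1, against 16.9% of all genes. With the fibroblast covariate 16 were DE, all higher.

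Slc2a3 encodes GLUT3, a high-affinity glucose transporter (chr6:122727809-122801640, minus strand, mm10). It had 11.2 and 19.4 TPM in normoxia and 220 and 140 TPM on day 2. Both hypoxic libraries were far above both normoxic ones, and the log2 fold change was 3.53 (SE 0.32, adjusted p = 0.0325 from limma). Aldoc, an aldolase isoform that is otherwise typical of brain (chr11:78322968-78327781, plus strand), had 14.1 and 23.9 TPM in normoxia and 301 and 164 TPM on day 2. Its log2 fold change was 3.56 (SE 0.36, adjusted p = 0.0493). The 2 day 2 libraries differed more from each other for Aldoc than for any of the other glycolytic genes that were DE, yet without overlap with normoxia. Further down the pathway, Pfkl, the liver-type phosphofructokinase, went from 99.0 and 82.3 TPM to 299 and 271 TPM (log2 fold change 1.65, SE 0.18, adjusted p = 0.0637). Pgk1, which makes the first ATP of the pathway, went from 223 and 158 TPM to 630 and 609 TPM (log2 fold change 1.72, SE 0.22, adjusted p = 0.0757). Pgk1 has processed copies elsewhere in the genome, so part of its reads may be split. Eno2, the neuronal enolase, had 17.0 and 10.2 TPM in normoxia and 62.6 and 56.3 TPM on day 2 (log2 fold change 2.13, SE 0.27, adjusted p = 0.0757).

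Pdk1, a kinase that restrains the use of pyruvate in mitochondria, was among the most repeatable changes (chr2:71873224-71903858, plus strand). Its values were 15.5 and 14.5 TPM in normoxia and 89.6 and 82.0 TPM on day 2. The log2 fold change was 2.47 (SE 0.19) with an adjusted p of 0.0191 from limma, and it is 1 of 3 genes that remained DE with the replicate number as a block. Pgm1, the phosphoglucomutase that links glycogen with glycolysis, was the only DE gene of the 17 on the glycogen list. It had 10.9 and 11.6 TPM in normoxia and 43.8 and 37.2 TPM on day 2, with a log2 fold change of 1.80 (SE 0.20, adjusted p = 0.0657). In the same list Ppp1r3b, a subunit that directs a phosphatase to glycogen, had 6.55 and 4.43 TPM in normoxia and 16.2 and 24.4 TPM on day 2 (log2 fold change 1.79), but its adjusted p was 0.124 from limma. The median of the glycogen list was 0.22, and it was 0.35 without the first normoxic replicate and 0.41 without the second day 2 replicate. With the fibroblast covariate 3 of the 17 were DE, all higher. Slc37a4, the transporter that carries glucose-6-phosphate into the endoplasmic reticulum, rose from 14.4 and 15.8 TPM to 47.0 and 41.2 TPM (log2 fold change 1.51, SE 0.20, adjusted p = 0.0837).

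**Figure D3:**
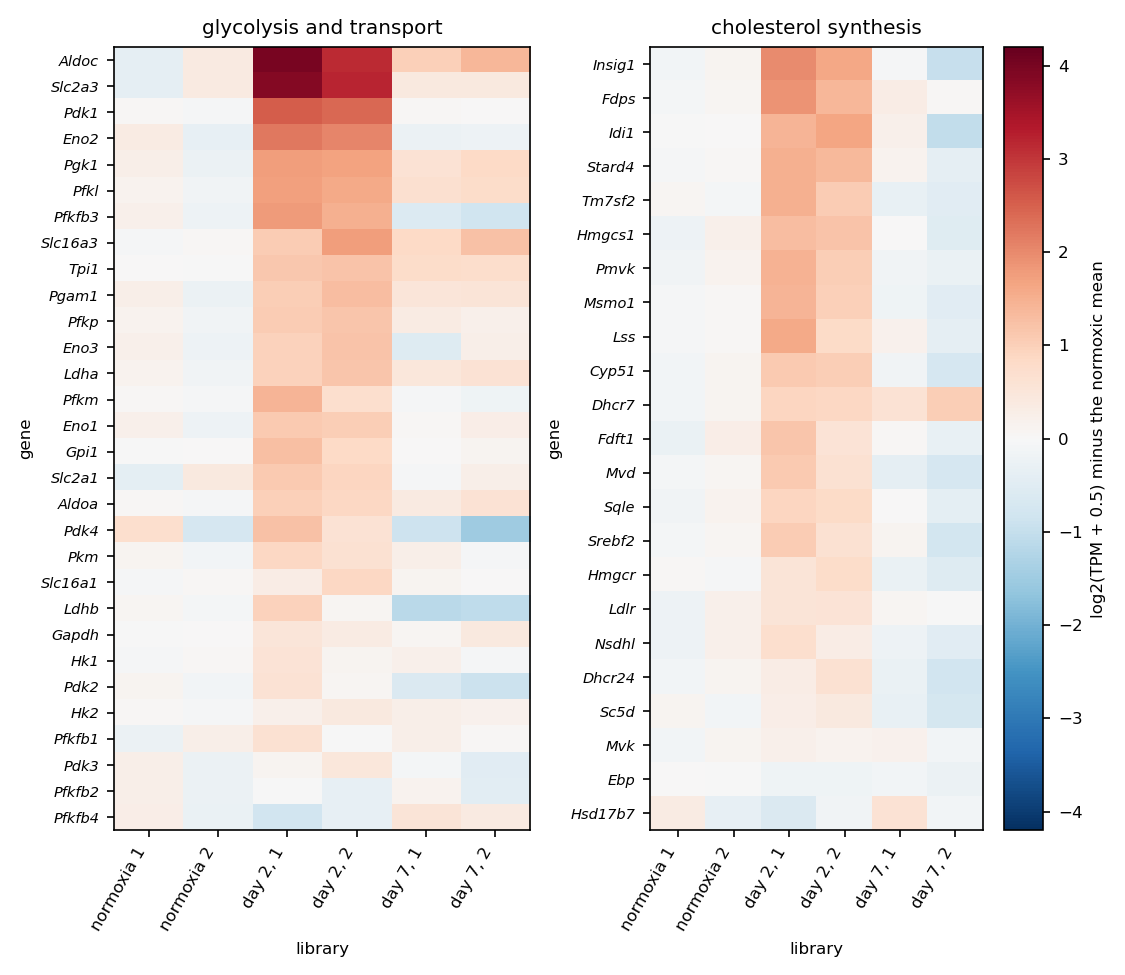
Log2(TPM + 0.5) minus the normoxic mean for the 30 glycolysis and transport genes and the 23 cholesterol genes in the 6 TSC libraries, ordered by fold change on day 2. The day 2 columns are red for most genes of both lists, with 21 and 16 members past 1.5-fold higher, and the day 7 columns are paler.

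Among 37 other known targets of hypoxia 5 were DE and higher and none DE and lower. Their median log2 fold change was 0.62, with 19 past 1.5-fold higher and 5 past 1.5-fold lower. With the fibroblast covariate 16 were DE and higher and 3 DE and lower. Bnip3 and Bnip3l, which mark mitochondria for removal by autophagy, were both among them. Bnip3 (chr7:138890836-138909519, minus strand) had 15.7 and 16.2 TPM in normoxia and 86.5 and 93.2 TPM on day 2. The replicates almost coincided, and the log2 fold change was 2.46 (SE 0.18, adjusted p = 0.0191 from limma). Bnip3l had 49.2 and 46.7 TPM in normoxia and 126 and 119 TPM on day 2, a smaller but equally tight difference (log2 fold change 1.35, SE 0.17, adjusted p = 0.0757). Car12, a carbonic anhydrase of the cell surface, had 0.708 and 0.927 TPM in normoxia and 8.90 and 6.88 TPM on day 2 (log2 fold change 2.67, SE 0.26, adjusted p = 0.0480). It held at least 128 reads in each of the 4 libraries. Ndrg1, a stress-responsive gene, had 23.2 and 38.9 TPM in normoxia and 148 and 107 TPM on day 2 (log2 fold change 2.05, SE 0.29, adjusted p = 0.0983). Selenbp1, a methanethiol oxidase, had 0.101 and 0.256 TPM in normoxia and 2.64 and 2.45 TPM on day 2 (log2 fold change 2.18, SE 0.25, adjusted p = 0.0657), and 1 normoxic library held only 4 of its reads. A related member of the Ndrg family outside the list, Ndrg2, had 6.42 and 9.92 TPM in normoxia and 38.4 and 31.2 TPM on day 2 (log2 fold change 2.05, SE 0.29, adjusted p = 0.0985).

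Not every familiar target was higher. Angptl4, a secreted inhibitor of lipoprotein lipase, had 83.7 and 15.1 TPM in normoxia and 3.35 and 14.2 TPM on day 2 (log2 fold change −2.27, adjusted p = 0.342 from limma). Both normoxic values lay above both day 2 values, and the test was not passed. The metallothionein Mt2 had 179 and 301 TPM in normoxia and 124 and 96.1 TPM on day 2 (log2 fold change −1.09, adjusted p = 0.303). With the fibroblast covariate, Angptl4 (log2 fold change −1.75, adjusted p = 0.0205) and Mt2 (−1.26, adjusted p = 0.0366) were 2 of the 3 that passed as lower. The angiogenic growth factor Vegfa, named after its values were seen, had 215 and 96.8 TPM in normoxia and 181 and 202 TPM on day 2, so the groups overlapped (log2 fold change 0.41, adjusted p = 0.652). Of 20 secreted angiogenic factors and receptors 0 were DE by limma, and 1 was with the covariate, a lower gene. Their median was −0.27, and it was 0.30 without the first normoxic replicate, 0.01 without the first day 2 replicate and −0.73 without the second day 2 replicate. The fibroblast markers moved with this median, and their part in it was not tested.

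Of 12 tested HIF subunits and oxygen-sensing feedback genes 0 were DE by limma, 6 were past 1.5-fold higher and 1 lower, and the median log2 fold change was 0.59. Egln3, a prolyl hydroxylase that acts on HIF, had 4.0 and 2.78 TPM in normoxia and 11.4 and 15.3 TPM on day 2 (log2 fold change 1.84, SE 0.27, adjusted p = 0.116). Hif3a, an alpha subunit with inhibitory isoforms, had 6.12 and 9.53 TPM in normoxia and 38.8 and 27.6 TPM on day 2 (log2 fold change 2.03, SE 0.32, adjusted p = 0.116). Ankrd37, a small ankyrin-repeat gene, had 2.2 and 2.23 TPM in normoxia and 6.76 and 16.8 TPM on day 2 (log2 fold change 2.05, SE 0.45, adjusted p = 0.191). In these 3 genes the groups did not overlap, and all 3 were DE with the fibroblast covariate, among 5 of the list. The transcript of Hif1a itself had 45.6 and 49.2 TPM in normoxia and 29.4 and 33.3 TPM on day 2, a log2 fold change of −0.59 with an adjusted p of 0.447. Other oxygen-dependent enzymes differed less. Of 20 histone demethylases of the JmjC family, Kdm4b had the largest difference, from 4.29 and 4.80 TPM to 11.5 and 11.6 TPM (log2 fold change 1.26, adjusted p = 0.138), and the family median was 0.21. In this family 0 genes were DE by limma, and 2 were with the fibroblast covariate, both higher. Among 14 collagen hydroxylases and crosslinking enzymes, P4ha2, a collagen prolyl hydroxylase, had the largest difference, from 18.4 and 17.4 TPM to 33.6 and 43.3 TPM (log2 fold change 1.07, adjusted p = 0.224). None of these 14 was DE by limma, and 2 were with the covariate, both higher.

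HIF binds the core letters ACGTG or GCGTG. To show what these letters look like in the genes that moved, they were searched on both strands in the 250 bases before the RefSeq start of each DE gene (build GRCm38.p6). CACGT and CACGC are the same motifs read on the other strand, and the letters CACGTG hold ACGTG on both strands. A promoter was at hand for 19 of the 25 genes. Of the 18 higher genes among them, 6 held ACGTG (33.3%) and 11 held GCGTG (61.1%), against 25.3% and 50.5% of the tested genes with a promoter and 18.5% and 30.9% of all genes with one. Either motif was held by 13 of the 18 (72.2%), against 61.8% of the tested genes with a promoter. A gene counted if any of its promoters matched, and the 18 genes had 27 promoters, against 12685 for 9944 tested genes. The promoter of Fermt1, the lower gene, held neither, and nor did those of some higher genes, such as Smtnl2, Car12 and Eno2. A match is only a description of the letters and does not show binding. Shown are Pgk1, Bnip3 and Pgm1, which hold ACGTG, and Pdk1, which rose with equally close replicates and holds GCGTG only. The bases run 5′ to 3′ on the strand of the gene, with the motifs in capitals, and stop before the gene as GENCODE annotates it.
Pgk1 (chrX:106186850-106187099, plus strand): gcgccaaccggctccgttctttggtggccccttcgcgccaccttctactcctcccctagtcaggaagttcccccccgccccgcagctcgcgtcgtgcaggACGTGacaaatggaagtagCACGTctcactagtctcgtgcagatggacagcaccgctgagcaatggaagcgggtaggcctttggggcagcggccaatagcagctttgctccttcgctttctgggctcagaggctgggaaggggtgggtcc
Bnip3 (chr7:138909520-138909756, minus strand): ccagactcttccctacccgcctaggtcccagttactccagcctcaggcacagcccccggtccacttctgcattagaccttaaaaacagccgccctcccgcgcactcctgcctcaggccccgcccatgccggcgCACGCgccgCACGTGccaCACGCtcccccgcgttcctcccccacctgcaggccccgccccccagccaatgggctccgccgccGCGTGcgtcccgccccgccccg
Pgm1 (chr4:99929201-99929413, plus strand): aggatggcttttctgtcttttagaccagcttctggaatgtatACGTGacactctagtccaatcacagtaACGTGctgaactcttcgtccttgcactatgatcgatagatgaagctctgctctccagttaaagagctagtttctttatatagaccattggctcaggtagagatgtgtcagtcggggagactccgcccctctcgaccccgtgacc
Pdk1 (chr2:71872974-71873223, plus strand): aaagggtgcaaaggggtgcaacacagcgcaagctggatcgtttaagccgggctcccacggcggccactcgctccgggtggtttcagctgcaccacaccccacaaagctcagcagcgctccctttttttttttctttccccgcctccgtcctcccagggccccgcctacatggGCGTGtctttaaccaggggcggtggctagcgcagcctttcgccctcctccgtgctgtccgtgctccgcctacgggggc
In Pgk1 the motifs begin 150 and 131 bases before the start and face opposite ways. In Pgm1 they begin 208 and 181 bases before it and face the same way. Bnip3 held 5 matches, of which those at 108 and 107 bases share the letters CACGTG, and Pdk1 held 1, at 78 bases.

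Several genes that rose have no place in glucose metabolism. Smtnl2, a smoothelin-like gene of the contractile cytoskeleton (chr11:72389164-72411713, minus strand), had 1.72 and 2.27 TPM in normoxia and 20.4 and 33.5 TPM on day 2. Its log2 fold change was 3.43 (SE 0.31, adjusted p = 0.0325 from limma), and it stayed DE with the replicate block. Bglap3, an osteocalcin-related gene with close copies beside it that can share its reads, had 3.28 and 7.06 TPM in normoxia and 48.3 and 38.5 TPM on day 2 (log2 fold change 3.03, SE 0.39, adjusted p = 0.0771). Adad2, an RNA-binding protein of the testis, had 0.845 and 1.30 TPM in normoxia and 8.71 and 6.63 TPM on day 2. Prss50, a testis serine protease, had 11.4 and 10.6 TPM against 71.1 and 43.0 TPM on day 2. Dnd1, which protects mRNAs in primordial germ cells, had 4.74 and 5.46 TPM against 25.6 and 18.7 TPM. Their log2 fold changes were 2.38, 2.28 and 2.00, each without overlap between the groups, and their largest adjusted p was 0.0837.

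Rdm1, an RNA-recognition-motif gene linked to DNA repair, had 19.1 and 19.2 TPM in normoxia and 69.2 and 53 TPM on day 2 (log2 fold change 1.63). Prelid2, a member of the PRELI family, had 0.844 and 0.907 TPM against 4.84 and 4.49 TPM on day 2 (log2 fold change 1.91). Nrgn, a calmodulin-binding protein of neurons, had 0.979 and 0.809 TPM against 4.12 and 4.91 TPM on day 2 (log2 fold change 1.84). In these genes the hypoxic values were well apart from the normoxic ones. Rpl22l1, a paralogue of the ribosomal protein Rpl22, had 105 TPM in both normoxic libraries and 334 and 275 TPM on day 2 (log2 fold change 1.52, SE 0.21, adjusted p = 0.0837). It was the only DE gene among 81 cytosolic ribosomal proteins, whose median log2 fold change was 0.37. Both day 2 libraries lay above both normoxic ones for 67 of them, against 30.6% of all genes. With the covariate 2 of the 81 were DE, both higher, no larger a share than the 2.76% of all genes. The only DE gene that fell was Fermt1, which encodes kindlin-1, an activator of integrins in epithelia (chr2:132904389-132945906, minus strand). It had 13.5 TPM in both normoxic libraries and 3.57 and 2.91 TPM on day 2 (log2 fold change −1.91, SE 0.22, adjusted p = 0.0657).

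Cholesterol synthesis was the list with the next largest median after glycolysis. None of its 23 tested genes was DE by limma, in a comparison where 1639 genes had an unadjusted p under 0.05. Even so, the median log2 fold change was 0.88, 16 were past 1.5-fold higher and 0 lower, and both day 2 libraries lay above both normoxic ones for 21. Insig1, which holds back the sterol-sensing machinery, had 40.7 and 46.8 TPM in normoxia and 175 and 135 TPM on day 2 (log2 fold change 1.81, SE 0.32, adjusted p = 0.126). Fdps, the farnesyl diphosphate synthase, had 6.36 and 7.25 TPM against 26.7 and 18.7 TPM (log2 fold change 1.65, SE 0.26, adjusted p = 0.116). Idi1, an isomerase upstream of it, had 8.38 and 8.73 TPM against 24.1 and 27.8 TPM (log2 fold change 1.54, SE 0.39, adjusted p = 0.224). With the fibroblast covariate 10 of the 23 were DE, all higher, Insig1, Fdps and Idi1 among them. The median of the list stayed between 0.77 and 1.09 in all 19 alternatives, some of which cannot change a fold change.

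Of 32 tested regulators of the TSC state 1 was DE and higher and none DE and lower. The median log2 fold change was 0.28, with 8 past 1.5-fold higher and 0 lower, and 2 were DE with the fibroblast covariate, both higher. Fgfbp1, a carrier that releases FGF from the matrix, had 78.1 and 75.4 TPM in normoxia and 333 and 207 TPM on day 2 (log2 fold change 1.77, SE 0.25, adjusted p = 0.0946). Lin28a, an RNA-binding protein of early stem cells, had 48.5 and 59.1 TPM against 106 and 121 TPM (log2 fold change 1.07, adjusted p = 0.199). None of the core regulators of the state passed the test. Sox2, a transcription factor of both TSCs and ESCs, had 660 and 714 TPM in normoxia and 1050 and 1100 TPM on day 2, without overlap (log2 fold change 0.64, SE 0.20, adjusted p = 0.273). Elf5, a gatekeeper of the trophoblast fate, had 60.4 and 56.6 TPM in normoxia and 82.5 and 85.1 TPM on day 2 (log2 fold change 0.51, adjusted p = 0.342). The log2 fold changes of Cdx2, Eomes, Esrrb, Tfap2c and Gata3 were −0.11, −0.17, 0.21, −0.16 and 0.58, with adjusted p-values from limma of 0.434 to 0.892. For Gata3 too the groups did not overlap, with 41.7 and 49.3 TPM against 86.1 and 53.7 TPM. Cdx2 had a log2 fold change of 0.01 with the fibroblast covariate.

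Differentiation genes of the trophoblast went both ways, with 0 DE of 42 tested by limma, 11 past 1.5-fold higher, 13 past 1.5-fold lower and a median of −0.24. With the fibroblast covariate 3 were DE and higher and 3 DE and lower. The Serpinb9 genes, granzyme inhibitors clustered on a single chromosome, were lower in both day 2 libraries. Serpinb9g had 11.6 and 30 TPM in normoxia and 2.44 and 10.6 TPM on day 2 (log2 fold change −1.76, adjusted p = 0.339). Serpinb9d had 20.4 and 31.1 TPM against 4.0 and 16.4 TPM (log2 fold change −1.56, adjusted p = 0.342). These paralogues are similar enough for reads to be split between them. Prl2c3, a prolactin-like hormone of giant cells with near-identical neighbours, had 13.6 and 7.85 TPM against 0.894 and 5.24 TPM (log2 fold change −1.94, adjusted p = 0.291). On the other side, Gjb5, the connexin of the spongiotrophoblast, had 149 and 167 TPM against 329 and 427 TPM (log2 fold change 1.24, adjusted p = 0.126), and Cebpb, a transcription factor, had 63.4 and 39.3 TPM against 75.5 and 311 TPM (log2 fold change 1.61, adjusted p = 0.351). Hand1, which drives giant cell formation, had 8650 and 14200 TPM in normoxia and 8570 and 7230 TPM on day 2 (log2 fold change −0.49, adjusted p = 0.520). Gcm1 and Prl3d1, marks of syncytiotrophoblast and giant cells, stayed below 2 TPM in all 4 libraries. The median of the list was 0.08 without the second normoxic replicate and 0.03 without the first day 2 replicate. Without both libraries rich in fibroblast markers it was −0.72, and without the first normoxic replicate alone −0.62.

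FGF is the signal that TSCs depend on, and its immediate targets were mixed. None of 27 FGF and ERK feedback genes was DE by limma, with 3 past 1.5-fold higher and 10 lower. Fosl1, an AP-1 subunit, had 154 and 118 TPM in normoxia and 26.5 and 49.6 TPM on day 2 (log2 fold change −1.88, SE 0.31, adjusted p = 0.116). Phlda1, an ERK target, had 454 and 456 TPM against 165 and 226 TPM (log2 fold change −1.23, SE 0.20, adjusted p = 0.116). Fos, by contrast, had 245 and 406 TPM in normoxia and 1190 and 540 TPM on day 2 (log2 fold change 1.34, adjusted p = 0.264). The groups did not overlap for these 3 genes, and Fosl1 (adjusted p = 0.00661), Phlda1 (0.0248) and Fos (0.0588) were DE with the fibroblast covariate in limma, among 1 higher and 3 lower genes of the list. The median of the list was −0.10. It was 0.09 with the covariate, 0.32 without the first normoxic replicate, −0.52 without the second and 0.03 without the first day 2 replicate. Among 25 genes of Nodal, BMP and Wnt feedback, Wnt6 had the largest difference, from 19.1 and 14.3 TPM to 50.6 and 33.8 TPM (log2 fold change 1.30, adjusted p = 0.198). None of these 25 was DE by limma, and 2 were with the covariate, both higher.

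Genes of cell growth and division had small positive medians. Of 40 genes of DNA replication and mitosis 0 were DE by limma, and their median was 0.33. Past 1.5-fold higher were 11 of them, against 12.6% of all genes. Both day 2 libraries lay above both normoxic ones for 27, against 30.6% of all genes. With the covariate 2 were DE, both higher, where 2.76% of all genes were DE and higher. Bub1, a kinase of the mitotic checkpoint, had 35.7 and 37.0 TPM in normoxia and 79.8 and 73.0 TPM on day 2 (log2 fold change 1.06, adjusted p = 0.126). Aurkb, another mitotic kinase, had 164 and 186 TPM against 417 and 292 TPM (log2 fold change 1.0, adjusted p = 0.187). The 77 mitochondrial ribosomal proteins had a median of −0.05, and the 78 subunits of oxidative phosphorylation one of 0.25. Of these subunits 8 were past 1.5-fold higher, a smaller share than the 12.6% of all genes, and none lower. For 47 of the 78, however, both day 2 libraries lay above both normoxic ones, against 30.6% of all genes. For 2 of the 78 both day 2 libraries lay below both normoxic ones, against 16.9% of all genes. The subunit with the largest difference was Cox6b2, the testis isoform of a cytochrome c oxidase subunit, with 109 and 124 TPM in normoxia and 333 and 187 TPM on day 2 (log2 fold change 1.10, adjusted p = 0.315). The median of 19 housekeeping genes was −0.03. One of them, Actb, had 27500 and 24600 TPM in normoxia and 15000 and 18200 TPM on day 2 (log2 fold change −0.65, adjusted p = 0.347).

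**Figure D4:**
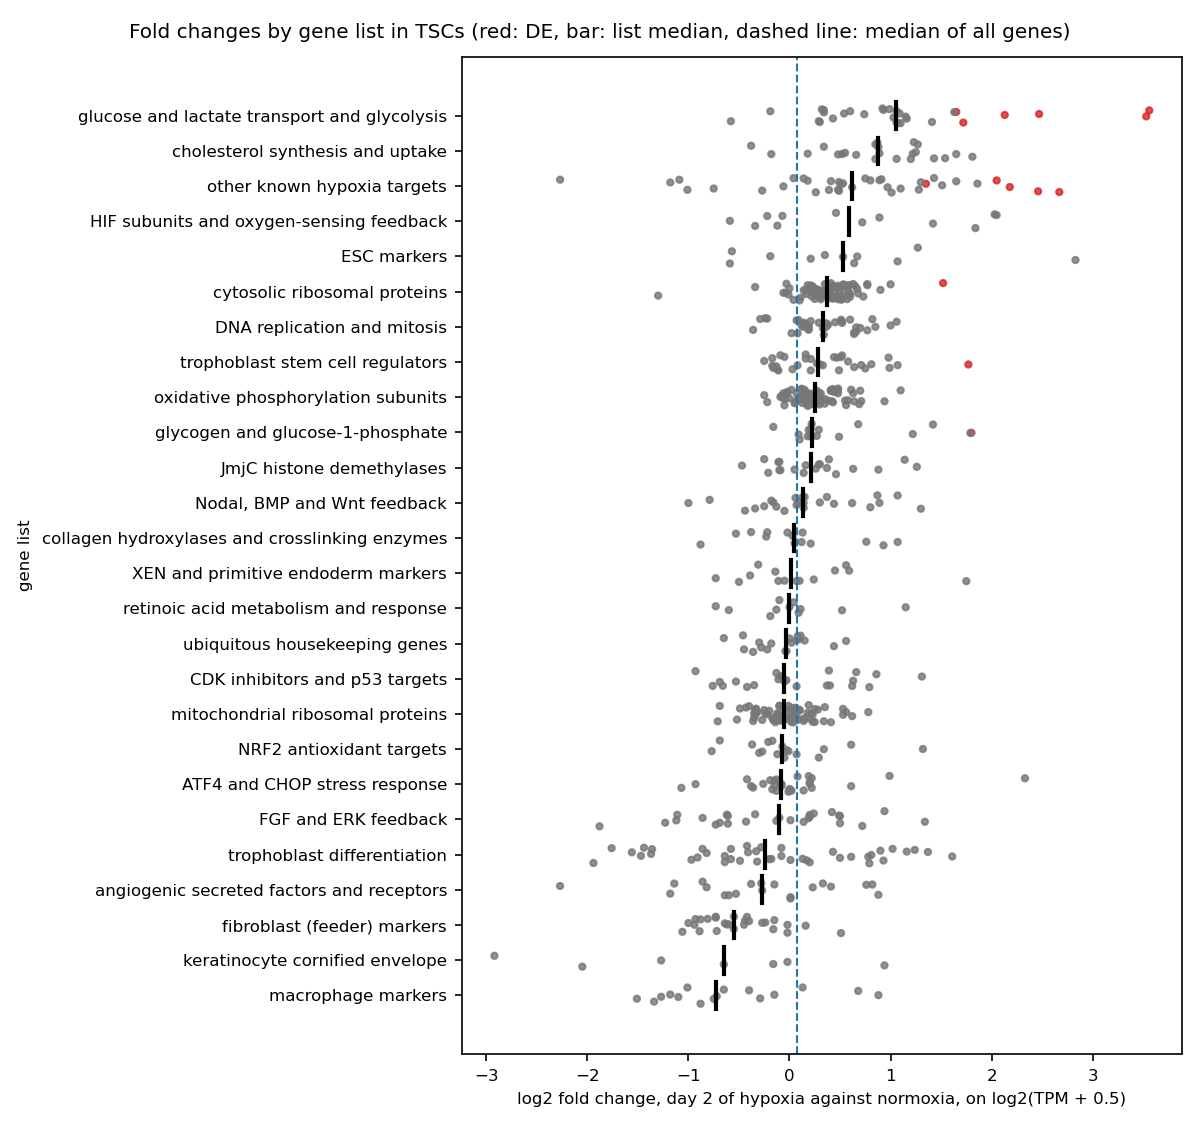
Log2 fold changes on day 2 against normoxia, on log2(TPM + 0.5), of the tested members of 26 gene lists. Each point is a gene (red if DE), the black bar is the list median and the dashed line marks the median of all genes, 0.07. The glycolysis (1.05) and cholesterol (0.88) lists lie farthest to the right, and the macrophage (−0.73), keratinocyte (−0.65) and fibroblast (−0.55) lists farthest to the left.

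Outside the DE genes, the largest differences without overlap between the groups were those of 1810010H24Rik, Dppa5a and Sprr2a3 among higher genes and of Vgf, Il1rl1 and Dynap among lower genes. Dppa5a, an RNA-binding protein of ESCs, had 0.523 and 1.94 TPM in normoxia and 21.0 and 5.37 TPM on day 2 (log2 fold change 2.83, SE 0.70, adjusted p = 0.224). Vgf, a secreted neuropeptide precursor, had 182 and 433 TPM in normoxia and 37.5 and 51.0 TPM on day 2 (log2 fold change −2.67, SE 0.41, adjusted p = 0.116). Dynap had 14.4 and 5.90 TPM against 0.967 and 1.70 TPM (log2 fold change −2.44, adjusted p = 0.149). All 6 were DE with the fibroblast covariate, with adjusted p-values from limma between 0.00201 and 0.0192. The genes that differed most between the normoxic replicates themselves were Syna, Vnn1 and Fam90a1b in one direction and Sprr2k, Ppbp and Lyz2 in the other. Syna, the envelope-derived protein that fuses syncytiotrophoblast, had 9.88 and 231 TPM in normoxia and 14 and 21.9 TPM on day 2. Its log2 fold change of −1.44 (SE 1.26, adjusted p = 0.658) thus rested on 1 library.

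The same genes were then followed to day 7, with the caution that they were chosen for being high or low on day 2. No normoxic libraries matched to each day exist, so days in hypoxia cannot be told apart from days in culture. For all 24 higher genes both day 7 libraries lay below both day 2 libraries, as they did for 44.9% of all genes. Their median log2 fold change against normoxia was 2.05 on day 2 and 0.59 on day 7, when 17 still had both libraries above both normoxic ones, against 8.98% of all genes. Between day 2 and day 7, 13.8% of all genes were lower and DE and 2.37% were higher and DE by limma. Pdk1 returned to 15.6 and 15.2 TPM and Slc2a3 to 19.8 and 19.6 TPM, within or next to the normoxic values. Aldoc kept 37.5 and 49.5 TPM and Bnip3 25 and 26.8 TPM, which is above both normoxic libraries. Against normoxia, 0.0401% of all genes were DE and higher on day 7 and 0.345% DE and lower. Fgfbp1 was among the latter and fell below its normoxic level to 25.2 and 26 TPM (log2 fold change −1.57, adjusted p = 0.0957 from limma), while Fermt1 reached 23.6 TPM in both libraries. Rpl22l1 had 182 and 242 TPM and was the only one of the 25 for which the difference between the days did not pass the test (log2 fold change −0.53, adjusted p = 0.153). Of the lists, cholesterol synthesis went from a median of 0.88 on day 2 to −0.24 on day 7, and TSC regulators from 0.28 to −0.87.

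Values in the other cell types on day 2 are given side by side, since their tables were normalized separately. Of the 24 higher genes, 24 were tested in ESCs and 18 in XEN cells. In ESCs 11 were past 1.5-fold higher, against 2.41% of all genes there, and 14 had both day 2 libraries above both normoxic ones, against 16.4%. In XEN cells these counts were 8 of 18, against 4.62%, and 10 of 18, against 19.6%. None was DE by limma in either cell type, where the smallest adjusted p of any gene was 0.215 in ESCs and 0.241 in XEN cells and 620 and 846 genes had an unadjusted p under 0.05. Bnip3 was high in all 3, with log2 fold changes of 2.46 in TSCs, 1.88 in ESCs and 1.66 in XEN cells. For Pdk1 the values were 2.47, 0.13 and 0.71, and for Slc2a3 3.53, 0.57 and −0.27. Slc2a3 had 84.0 and 67.0 TPM in normoxic ESCs and 563 and 290 TPM in normoxic XEN cells. Smtnl2 had 27.7 and 29.1 TPM in normoxic ESCs and 33.0 and 31.6 TPM there on day 2 (log2 fold change 0.18). Whether any of these fold changes differs between cell types was not tested.

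**Figure D5:**
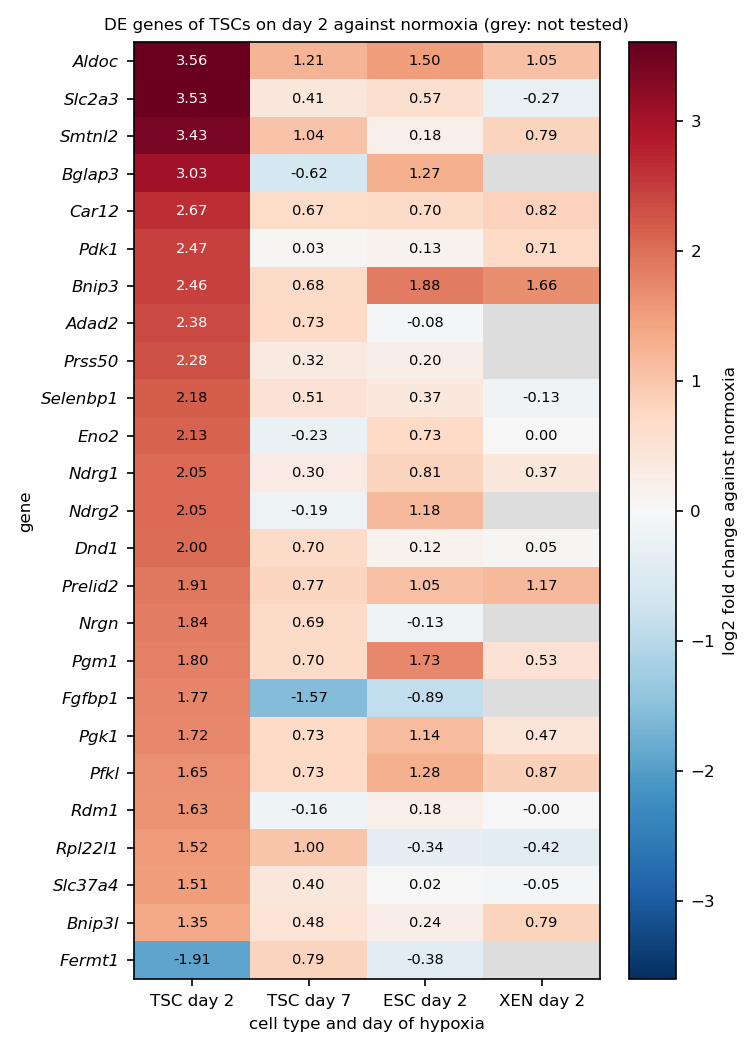
Log2 fold change against normoxia of the 25 DE genes. The columns are TSCs on each day and the other cell types on day 2 only, on log2(TPM + 0.5). Colour and number give the value, and grey marks genes not tested. Bnip3, Aldoc, Pfkl and Pgk1 are positive in all 4 columns, and Fgfbp1 is positive on day 2 in TSCs and negative on day 7 and in ESCs.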

How the data were processed

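Bulk RNA-seq gave 6 libraries of mouse TSCs, 2 each from normoxia, day 2 and day 7 of hypoxia. The deposited values are TPM per gene. According to the labels and methods, the authors trimmed reads with cutadapt 2.4, aligned them with STAR 2.7.5a to mm10, summed them per gene, removed genes that are not protein-coding or lie under a CPM threshold, and scaled by gene length. Columns labelled as day 0 were taken as normoxia. TPM times the span of a gene gave whole reads within 0.05 in all 6 libraries for 13330 of 13518 genes, so the scaling was by span, introns included. Levels of different genes are thus not on a common scale, and the summed levels of a list lean toward members with short spans. Because only scaled values were deposited, the tests used log2(TPM + 0.5) in limma 3.58.1 (R 4.3.3), with a mean-variance trend, a term per condition over the 6 TSC libraries and Benjamini-Hochberg adjustment over 12481 genes. The count test of the study was not repeated. Tests and recovery were tested on simulated data. Tables, motif searches and figures were made in Python 3.11.15. With 2 libraries a group an exact permutation test cannot go below p = 0.333, so none is given. The labels do not say that the replicates came from separate lines or derivations, and p-values measure only the spread between these libraries. Depth limits genes of low level, and 2 libraries a group limit every test.

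The members of the comparison and the gene lists were chosen with earlier results of these data known. Genes named are all DE genes, up to 3 list members past 1.5-fold in each direction, fixed markers, the 3 largest differences without overlap in each direction and the 3 largest differences between normoxic replicates in each direction, of which those that matter are described. Whether same-numbered libraries were grown or processed as pairs is not stated. Their deviations correlated with r of −0.46 between normoxia and day 2, 0.27 between normoxia and day 7 and −0.03 between day 2 and day 7. These correlations cannot show how the libraries were handled, and the main fit held no replicate block. Alternatives were another pseudocount, filter, scaling, threshold, gene length or model, a replicate block and leaving out libraries. The fibroblast covariate, the crossed block and the fit without both libraries rich in fibroblast markers were added after the data were seen. A result for 1 gene is not reported here.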

Additional observations from a re-analysis of the deposited data

Results flagged for a closer look

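For 24 of the 25 DE genes of day 2, levels differed between the hypoxic groups by limma's test of day 7 against day 2 (adjusted p between 0.00579 and 0.0428). The same normoxic libraries served both days, so days in hypoxia and days in culture cannot be told apart. The day 2 libraries that chose these genes also enter this difference, so it is not independent of the choice. The log2 fold change of day 7 against day 2 was −3.65 for Bglap3, −3.33 for Fgfbp1, −3.12 for Slc2a3, −2.44 for Pdk1, −2.38 for Smtnl2, −2.36 for Eno2, −2.35 for Aldoc and −2.24 for Ndrg2. It was −1.99 for Car12, −1.96 for Prss50, −1.80 for Rdm1, −1.77 for Bnip3, −1.75 for Ndrg1, −1.67 for Selenbp1, −1.65 for Adad2, −1.30 for Dnd1, −1.15 for Nrgn and −1.14 for Prelid2. The smallest falls were −1.11 for Pgm1 and for Slc37a4, −0.99 for Pgk1, −0.92 for Pfkl and −0.87 for Bnip3l, and Fermt1 went the other way with 2.69.

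Fgfbp1 had log2 fold changes of opposite sign in 2 cell types on day 2, of which that in TSCs passed the test. Both hypoxic libraries lay above both normoxic ones in TSCs (78.1 and 75.4 against 333 and 207 TPM) and below them in ESCs, where it had 80.4 and 67.7 TPM in normoxia and 54.7 and 28.5 TPM on day 2 (log2 fold change −0.89, adjusted p = 0.877 from limma). This difference between cell types was not tested.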

How the results depend on the processing

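The number of DE genes, 25, was within 1.5 times that count with a pseudocount of 0.1 (26) or 1 (25), a TPM filter of 1 (27), no mean-variance trend (19), exon lengths (33) and voom on the recovered reads (34). It was 11 with no filter on low values, 15 with median-ratio scaling, 6 at an adjusted p of 0.05 and 0 when the day 7 libraries were left out of the fit, where 1504 genes had an unadjusted p under 0.05 from limma. Leaving out 1 library gave between 0 and 50. It was 0 without the first or the second day 2 replicate, and without either day 7 replicate. The replicate block gave 3, Smtnl2, Pdk1 and Bnip3 (adjusted p = 0.0736 each). As same-numbered libraries of normoxia and day 2 deviated in opposite directions, the crossed replicate block was run and gave 326 DE genes. The fibroblast covariate gave 431, and leaving out both libraries rich in fibroblast markers gave 756, with 1 library a group and the spread taken from the day 7 pair. The crossed block and the covariate each included all 25. Both were chosen after the deviations between replicates were seen, so this overlap is not independent support for the 25. The cause of the differences between these counts was not tested.

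Some of the genes described by name, none of them DE, changed sign. With the covariate these were Cdx2 (0.01), Col1a1 (0.16) and Ppbp (0.05), and without both libraries Vnn1 (−0.47) and Ppbp (0.72). With single libraries left out, log2 fold changes crossed 0 for Cdx2 (−0.58 to 0.35), Eomes (−0.56 to 0.23), Prl3d1 (−0.53 to 0.37), Vegfa (−0.17 to 0.98), Col1a1 (−2.07 to 0.98), Lyz2 (−4.15 to 1.60), Ppbp (−3.95 to 1.88), Sprr2k (−2.71 to 4.59), Syna (−3.68 to 0.80), Vnn1 (−0.86 to 2.49) and Fam90a1b (−2.10 to 1.18). The medians of the glycolysis list (0.89 to 1.15), the cholesterol list (0.77 to 1.09), the other hypoxia targets (0.52 to 0.90) and the HIF list (0.41 to 0.77) stayed positive in all 19 alternatives. Some of these alternatives, such as the replicate block, cannot change a fold change. Medians nearer 0 moved more in proportion, as for glycogen (0.14 to 0.46) and TSC regulators (0.21 to 0.42). The median of the fibroblast markers ran from −1.67 to 0.51.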

Other observations

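A few more lists are described here by single genes, most of them without overlap between the groups. Such genes were common, with 30.6% of all genes higher and 16.9% lower without overlap. Vldlr, a lipoprotein receptor on the ATF4 and CHOP list, had 2.77 and 1.10 TPM in normoxia and 9.69 and 12.5 TPM on day 2 (log2 fold change 2.33, SE 0.37, adjusted p = 0.116 from limma). The other 28 genes of that list were spread around 0, with a list median of −0.08, and 1 gene of the list was DE with the fibroblast covariate, a higher one. Sesn2, a stress-induced sestrin, had 169 and 125 TPM in normoxia and 76.3 and 76.1 TPM on day 2 (log2 fold change −0.93, adjusted p = 0.231). Of 17 NRF2 antioxidant targets 2 were past 1.5-fold higher and 2 lower, against 12.6% and 6.45% of all genes. Hmox1, the heme oxygenase, had 601 and 435 TPM in normoxia and 288 and 348 TPM on day 2 (log2 fold change −0.69, adjusted p = 0.289).

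Among markers of the other stem cells, Nanog had 1.44 and 1.22 TPM in normoxia and 4.67 and 2.36 TPM on day 2 (log2 fold change 1.07, adjusted p = 0.274). Tfcp2l1, a transcription factor of the naive pluripotent state, had 9.90 and 13.4 TPM against 45.5 and 17.6 TPM (log2 fold change 1.27, adjusted p = 0.309). Klf2, another of these markers, had 113 and 108 TPM against 49.5 and 109 TPM (log2 fold change −0.59, adjusted p = 0.602 from limma). The median of 11 tested ESC markers was 0.53, with 8 above 0, 5 past 1.5-fold higher and 1 lower. Without overlap between the groups, 7 were higher and 2 lower. With the covariate 1 was DE, a higher one. Amn, a subunit of the vitamin B12 receptor and a marker of visceral endoderm, had 2.76 and 1.33 TPM in normoxia and 7.77 and 7.70 TPM on day 2 (log2 fold change 1.75, adjusted p = 0.149), while the median of 14 primitive endoderm markers was 0.01, with 1 DE and higher under the covariate. Of the retinoic acid list, Rbp4, a retinol carrier, had 3.77 and 4.62 TPM in normoxia and 10.2 and 9.57 TPM on day 2 (log2 fold change 1.15, adjusted p = 0.209), and 1 of the 11 genes on that list was DE and higher with the covariate.

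A list of 7 genes of the keratinocyte cornified envelope, chosen after values were seen, had a median log2 fold change of −0.65 and summed levels of 6310 and 8130 TPM in normoxia and 2340 and 3700 TPM on day 2. The median was −0.07 without the first normoxic replicate, −2.71 without the second, −0.25 without the first day 2 replicate, −1.57 without the second and −0.09 with the fibroblast covariate, where 1 member was DE and higher and 3 DE and lower. Sprr2k, a member of it, had 206 and 0.811 TPM in normoxia and 8.97 and 104 TPM on day 2, the order of the fibroblast markers.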
